A study of Homo sapiens with 4 samples.

Results

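The genes described here encode the FOS and JUN proteins that pair to form the transcription factor AP-1, together with ATF3 and EGR1, which are induced by many of the same signals. The 9 members (FOS, FOSB, FOSL1, FOSL2, JUN, JUNB, JUND, ATF3 and EGR1) were taken by gene symbol from an RNA-seq table of 58365 rows, and each symbol had 1 row. The RNA came from an established line of human embryonic stem cells, H1, collected on day 8 of a stepwise hematopoietic differentiation. All cells received 40 ng/ml activin A with 50 ng/ml BMP4 for 2 days and then 40 ng/ml VEGF with 50 ng/ml bFGF for 3 days. VEGF and bFGF were then continued for 3 days with the vehicle DMSO (2 libraries) or with SB431542, called SB here (2 libraries), a small molecule that inhibits the TGFβ type I receptors. The study describes collection of CD31+ cells, whereas the sample labels do not mention a sort. H1 is a single line, and the labels do not say whether libraries numbered 1 and 2 came from separate cultures, so the p-values may measure only technical spread.

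AP-1 is a dimer of basic leucine zipper proteins. JUN proteins can pair with one another or with a FOS protein, whereas FOS proteins need a partner of another family to bind DNA well. Transcription of FOS, FOSB, JUN, JUNB, ATF3 and EGR1 can start within minutes of a growth factor, serum or stress signal without new protein synthesis, and their mRNAs are short-lived, whereas FOSL1 and FOSL2 usually follow later and last longer. SMAD proteins, which act below the TGFβ receptors, are known to cooperate with AP-1 at some genes.

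The members were compact genes. Each of the 9 had 4 or fewer exons in its longest coding transcript set beside 20.9% of 11440 tested protein-coding genes, and the 3 JUN genes had 1 exon, a structure found in 2.04% of those genes. The span of 8 members lay below the median of 31628 bases, from 1820 bases for JUNB to 24865 bases for FOSL2, and ATF3 spanned 55444 bases. The letters TATTTAT, a form of the AU-rich element found in unstable mRNAs, stood in the 3′ untranslated region of 7 of 9 members and of 34.2% of those genes. FOS and FOSL2 held 2 copies each, and JUNB and EGR1 held none. The shorter ATTTA was found in 9 of 9 members and in 71.4% of the genes.

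The 250 bases upstream of the RefSeq start were searched because several of these promoters are known to be read by CREB and by SRF, the factors that receive kinase and calcium signals. RefSeq promoters (GRCh38.p14) were found for 8 of 9 members in 9 entries, since ATF3 has 2. FOSL1 had no entry. TGACGT, the core of the CRE site bound by CREB and ATF proteins, was present on either strand upstream of FOS, FOSB, FOSL2, EGR1 and JUND, and in 7.10% of 35116 promoters. The full palindrome TGACGTCA, which contains TGACGT on both strands, was found in JUND and in 1.65% of promoters. TGACATCA, a variant site bound by JUN and ATF dimers, was found upstream of JUN and ATF3 and in 2.37% of promoters. The canonical AP-1 site TGACTCA was not among these letters in any member and was present in 4.20% of promoters. Each of the following windows is 30 bases long and runs 5′ to 3′ on the strand of its gene, with the match in capitals (ACGTCA is TGACGT read on the other strand). They are shown because the match stood at a similar distance from the start in FOS, FOSB, FOSL2, EGR1 and JUN, where its first base was between 67 and 60 bases upstream.
FOS, chr14:75278752-75278781, plus strand: tggttgagcccgTGACGTttacactcattc
FOSB, chr19:45467924-45467953, plus strand: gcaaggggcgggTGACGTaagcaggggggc
FOSL2, chr2:28392780-28392809, plus strand: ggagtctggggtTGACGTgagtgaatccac
EGR1, chr5:138465400-138465429, plus strand: atatggccatgtACGTCAcgacggaggcgg
JUN, chr1:58784096-58784125, minus strand: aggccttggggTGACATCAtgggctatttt
ATF3, chr1:212565273-212565302, plus strand: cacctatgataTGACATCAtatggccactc
JUND, chr19:18281804-18281833, minus strand: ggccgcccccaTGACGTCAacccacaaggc
In ATF3 the match began 123 bases and in JUND 200 bases upstream. JUND also held a separate copy of TGACGT, not shown, whose first base was 87 bases upstream.

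The CArG box, the site of SRF, was found upstream of EGR1, where it occurred 2 times, and in 1.16% of promoters. It was not among the letters searched in the other 7 members with a promoter, FOS included, whose known SRF element lies farther upstream. The whole 250 bases of EGR1 are given because both kinds of site occur there, with 2 CArG boxes between 2 copies of ACGTCA, all in capitals.
EGR1, chr5:138465229-138465478, plus strand: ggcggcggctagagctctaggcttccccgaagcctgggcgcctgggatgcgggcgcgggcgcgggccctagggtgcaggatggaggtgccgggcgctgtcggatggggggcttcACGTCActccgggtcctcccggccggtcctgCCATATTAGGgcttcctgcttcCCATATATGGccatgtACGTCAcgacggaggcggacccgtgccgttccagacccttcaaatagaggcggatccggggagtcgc
FOSB and FOS, the pair of members with the largest positive differences between SB and DMSO, each held 1 copy of TGACGT, shown in capitals in the stretch from 250 bases upstream to the first exon annotated in GENCODE 29.
FOSB, chr19:45467746-45467994, plus strand: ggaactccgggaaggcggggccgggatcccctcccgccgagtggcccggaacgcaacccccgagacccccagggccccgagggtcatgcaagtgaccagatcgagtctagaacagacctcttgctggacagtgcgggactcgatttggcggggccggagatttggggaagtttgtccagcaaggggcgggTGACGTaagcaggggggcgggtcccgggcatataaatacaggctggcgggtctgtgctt
FOS, chr14:75278578-75278773, plus strand: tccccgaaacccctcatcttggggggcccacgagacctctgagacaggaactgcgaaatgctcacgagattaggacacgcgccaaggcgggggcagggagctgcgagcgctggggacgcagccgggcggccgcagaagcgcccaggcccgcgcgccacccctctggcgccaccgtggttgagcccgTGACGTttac
FOSL2, which stood lower with SB, held the same letters at nearly the same place. The windows shown for FOS, FOSL2 and JUN overlap an exon annotated in GENCODE 29.

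The values are FPKM, fragments scaled to transcript length and to the library, which allow genes to be compared per length. Libraries summed to between 570844 and 612614 FPKM. The number of reads is unknown. Relative depth was read from the commonest FPKM ratio to SB replicate 2 over genes with 1 transcript and 1 exon. It lay between 75.6% and 100% of the deepest library. Each estimate rested on 95 to 257 genes near that ratio, of 2989 to 3167 compared. Differences between SB and DMSO are given as log2 fold changes of log2(FPKM + 1), which understate the change of genes with low values. They were tested with limma across 14909 genes with a mean of at least 1 FPKM in at least 1 group, and all 9 members were among them. With 2 libraries against 2, an exact permutation test of one gene cannot give a two-sided p below 0.333.

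Members spanned a wide range of levels. By the mean FPKM over the 4 libraries the order was JUND (212), FOS (127), EGR1 (109), JUNB (66.2), FOSB (50.7), JUN (32.0), FOSL1 (5.55), FOSL2 (5.16) and ATF3 (2.85). JUN and FOSL1 were the only neighbours in this order whose ranges over the libraries did not overlap. FOSL1 and FOSL2, the late members, and ATF3 thus stood below the other 6 in every library.

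**Figure D1:**
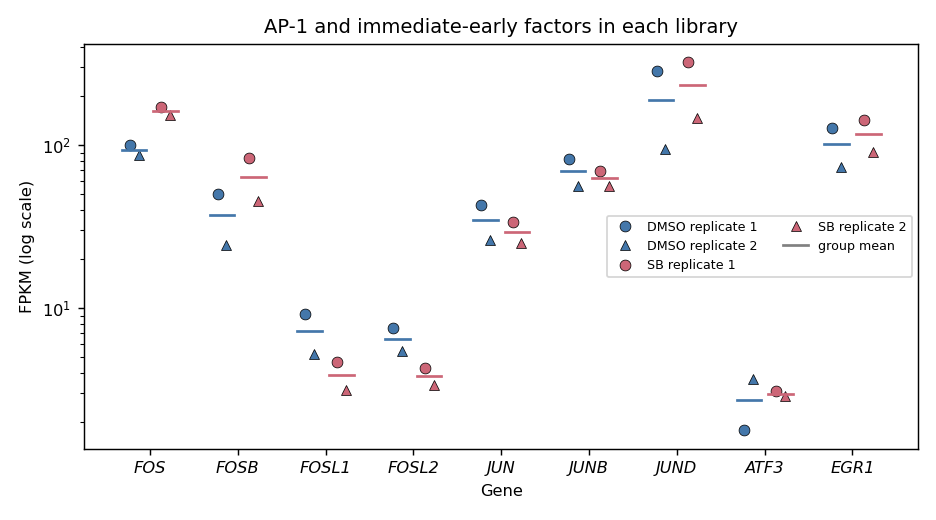
FPKM of each member on a log scale in the 4 libraries, with circles for replicate 1, triangles for replicate 2, blue for DMSO, red for SB and a bar at the group mean. FOS in both SB libraries (170.3 and 152.8) lies above both DMSO libraries (99.8 and 87.1), FOSL1 and FOSL2 lie below, and in every member but ATF3 the circle lies above the triangle of the same color.

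Between SB and DMSO, both SB libraries stood above both DMSO libraries for FOS and below them for FOSL1 and FOSL2, and the groups overlapped for FOSB, the JUN family, ATF3 and EGR1. None of the differences passed the adjustment. With limma, 0 of 9 members had an adjusted p under 0.05, against 0.134% of tested genes (20 of 14909, 0.0268% higher and 0.107% lower), and 2 of 9 (FOS higher and FOSL2 lower) had an unadjusted p under 0.05, against 9.96%. FOS was the 1 member with both SB libraries above both DMSO libraries (21.5% of tested genes), and FOSL1 and FOSL2 were the 2 members with both below (16.0%). Within both replicate numbers, SB was higher in 4 members (FOS, FOSB, JUND and EGR1, against 40.9% of tested genes) and lower in 3 (FOSL1, FOSL2 and JUN, against 30.6%). The log2 fold change reached 0.5 in 2 members, FOS and FOSB (6.92% of tested genes), and was -0.5 or less in FOSL1 and FOSL2 (8.27%). The median log2 fold change of the 9 members was 0.15, beside 0.04 over all tested genes.

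FOS (ENSG00000170345.9, chr14:75278774-75282230, plus strand) encodes the founding FOS protein, a rapid-response partner of JUN. It stood at 99.8 and 87.1 FPKM in DMSO replicates 1 and 2 and at 170.3 and 152.8 FPKM in SB replicates 1 and 2. Both SB libraries were above both DMSO libraries, with means of 162 ± 12.4 against 93.4 ± 8.95 FPKM (SD, n = 2 each), a ratio of 1.73. The log2 fold change was 0.78 (SE 0.17, 95% interval 0.35 to 1.22), at 0.77 within replicate 1 and 0.80 within replicate 2. Its unadjusted limma p of 0.00615 became 0.245 after adjustment. FOS was among the hematopoiesis-related genes that the study chose to display from these same libraries, so its direction here is not independent evidence.

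FOSB (ENSG00000125740.13, chr19:45467995-45475179, plus strand), the closest relative of FOS, encodes a full-length protein and a shorter form that lacks the C-terminal activation domain, which a value per gene cannot separate. It stood at 50.2 and 24.3 FPKM with DMSO and at 82.9 and 45.2 FPKM with SB. The groups overlapped, since SB replicate 2 was below DMSO replicate 1, but SB was higher within each number. The ratio of the means was 1.72, near that of FOS, and the log2 fold change was 0.79 (SE 0.45, 95% interval -0.39 to 1.97, limma adjusted p 0.717), at 0.71 within replicate 1 and 0.87 within replicate 2.

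FOSL1 (ENSG00000175592.8, chr11:65892049-65900573, minus strand) encodes FRA-1, a FOS protein without a strong activation domain that is itself a known AP-1 target. It stood at 9.17 and 5.24 FPKM with DMSO and at 4.65 and 3.14 FPKM with SB. Both SB libraries lay below both DMSO libraries. The log2 fold change was -0.72 (SE 0.31, 95% interval -1.54 to 0.096, limma adjusted p 0.571), at -0.85 within replicate 1 and -0.59 within replicate 2.

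FOSL2 (ENSG00000075426.11, chr2:28392448-28417312, plus strand), which encodes FRA-2, stood at 7.52 and 5.46 FPKM with DMSO and at 4.30 and 3.36 FPKM with SB. Again the groups did not overlap. The log2 fold change was -0.63 (SE 0.23, 95% interval -1.22 to -0.035), and the unadjusted limma p of 0.0417 became 0.477 after adjustment. Within replicate 1 the value was -0.68 and within replicate 2 it was -0.57. FOSL2 overlaps AC104695.3 and, on the opposite strand, FLJ31356, and whether strand was used in counting is not given in the sources used here, so its reads may not be separable from theirs.

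**Figure D2:**
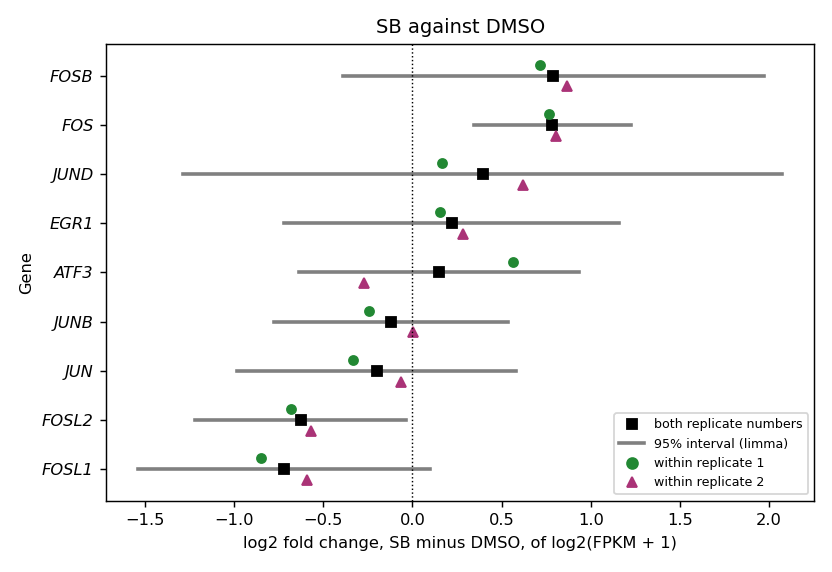
log2 fold change of log2(FPKM + 1), SB minus DMSO, for each member, with the limma 95% interval as a grey bar, the estimate as a square, and the values within replicate 1 (circle) and replicate 2 (triangle). The interval excludes 0 for FOS (0.35 to 1.22) and FOSL2 (-1.22 to -0.035), and the values within each number lie on one side of 0 for every member but JUNB and ATF3.

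Because the FOS proteins compete for the same partners, the make-up of the family was also examined within each library, where the scale of the library cancels. FOS made up 59.9% and 71.3% of the summed FPKM of the family with DMSO and 65.0% and 74.7% with SB. FOSL1 made up 5.50% and 4.29% with DMSO and 1.77% and 1.54% with SB. FOSL2 made up 4.51% and 4.47% with DMSO and 1.64% in each SB library. The shares of FOSL1 and FOSL2 did not overlap between the groups, while the share of FOSB followed the replicate number, at 30.1% and 31.6% in replicate 1 and 19.9% and 22.1% in replicate 2. The sum of FOS and FOSB was 8.99 and 10.4 times that of FOSL1 and FOSL2 with DMSO and 28.3 and 30.5 times with SB. This ratio, a comparison chosen after the values were seen, averaged 9.70 ± 1.0 with DMSO and 29.4 ± 1.54 with SB (SD, n = 2 each), a 3.03-fold difference, at 3.15-fold within replicate 1 and 2.93-fold within replicate 2. The groups did not overlap, and the smallest two-sided p that an exact permutation test allows here is 0.333.

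**Figure D3:**
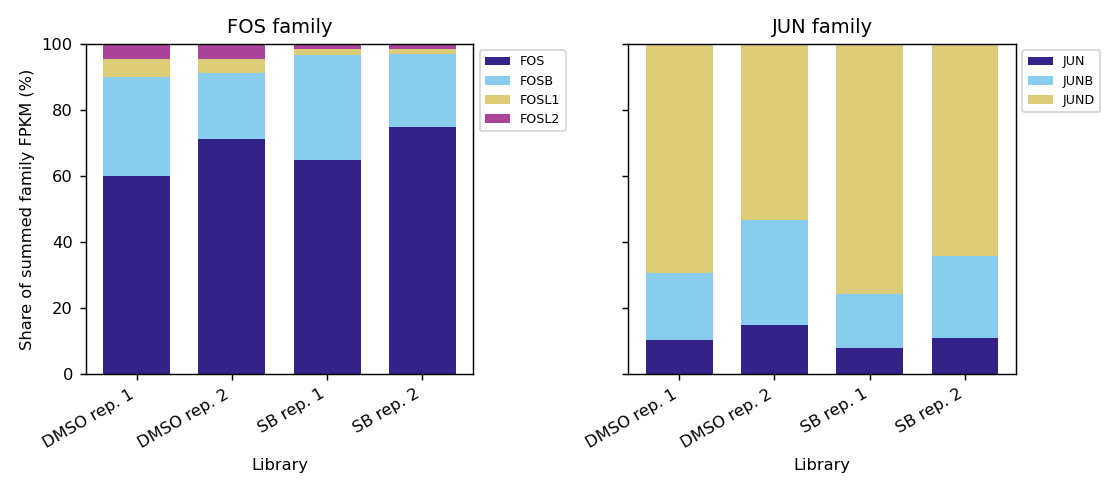
Share of the summed FPKM of the FOS family (left) and of the JUN family (right) held by each gene, in percent, 1 bar per library. FOSL1 and FOSL2 take 5.50% and 4.51% at most in DMSO libraries and 1.77% and 1.64% at most in SB libraries, and JUND takes the most of the JUN family in every library.

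JUN (ENSG00000177606.6, chr1:58780788-58784327, minus strand) encodes c-Jun, the strongest activator of its family and a target of the JNK kinases. It stood at 42.8 and 26.2 FPKM with DMSO and at 33.8 and 25.0 FPKM with SB. The groups overlapped, and the log2 fold change was -0.20 (SE 0.30, 95% interval -0.98 to 0.58, limma adjusted p 0.924). Within replicate 1 it was -0.33 and within replicate 2 it was -0.066.

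JUNB (ENSG00000171223.5, chr19:12791496-12793315, plus strand), whose protein activates fewer genes than c-Jun and can oppose it, stood at 82.7 and 56.1 FPKM with DMSO and at 69.7 and 56.2 FPKM with SB. Both SB values lay between the DMSO values. Its log2 fold change was -0.12 (SE 0.25, 95% interval -0.78 to 0.54, limma adjusted p 0.959). JUNB overlaps HOOK2 on the opposite strand. The ratio of JUNB to JUN was nearly constant, at 1.93 and 2.14 with DMSO and 2.06 and 2.25 with SB.

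JUND (ENSG00000130522.5, chr19:18279760-18281622, minus strand) encodes the JUN protein that many resting cells express without stimulation. It stood at 286.5 and 94.5 FPKM with DMSO and at 321.9 and 145.8 FPKM with SB. The level in replicate 1 was 3.03 times that in replicate 2 with DMSO and 2.21 times with SB, so the spread between replicate numbers exceeded the difference between the groups. The log2 fold change was 0.39 (SE 0.65, 95% interval -1.29 to 2.07, limma adjusted p 0.933). JUND held 69.5% and 53.4% of the JUN family with DMSO and 75.7% and 64.2% with SB.

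Summed, the JUN family stood at 412.1 and 176.8 FPKM with DMSO and at 425.4 and 227.0 FPKM with SB, groups that overlap. The FOS family summed to 166.7 and 122.1 FPKM with DMSO and to 262.2 and 204.5 FPKM with SB, with both SB libraries above both DMSO libraries. The ratio of the FOS sum to the JUN sum was 0.404 and 0.691 with DMSO and 0.616 and 0.901 with SB, and these ranges overlapped.

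ATF3 (ENSG00000162772.16, chr1:212565334-212620777, plus strand), a stress-induced factor that represses as a homodimer and can pair with JUN proteins, was the lowest of the members. It stood at 1.78 and 3.67 FPKM with DMSO and at 3.11 and 2.87 FPKM with SB. Both SB values lay between the DMSO values, and the sign of the difference changed with the number, at 0.57 within replicate 1 and -0.27 within replicate 2 on the log2 scale. Its log2 fold change was 0.15 (SE 0.30, 95% interval -0.64 to 0.93, limma adjusted p 0.959).

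EGR1 (ENSG00000120738.7, chr5:138465490-138469315, plus strand) encodes a zinc finger factor that is not part of AP-1 and is induced through ERK and SRF. It stood at 128.2 and 73.9 FPKM with DMSO and at 142.8 and 90.3 FPKM with SB. The groups overlapped, with a log2 fold change of 0.22 (SE 0.36, 95% interval -0.72 to 1.16, limma adjusted p 0.934), at 0.15 within replicate 1 and 0.29 within replicate 2. The level of EGR1 relative to FOS was 1.29 and 0.848 with DMSO and 0.838 and 0.591 with SB. Both SB libraries were below both DMSO libraries, but only narrowly, at 0.838 against 0.848. This ratio carries the higher FOS of the SB libraries, since EGR1 itself was not lower with SB within either number.

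In JUN, JUNB, JUND, FOSB, ATF3 and EGR1 the difference between replicate numbers was larger than that between SB and DMSO. In 8 of 9 members, all but ATF3, replicate 1 was above replicate 2 in both groups, against 35.6% of tested genes, and 0 members were higher in replicate 2 in both (42.2%). The mean difference of replicate 2 minus replicate 1 on the log2 scale ran from -1.36 for JUND and -0.94 for FOSB to -0.17 for FOS, and it was 0.33 for ATF3, beside a median of 0.04 over all tested genes. Transcript GC content was above the median of tested genes (49.3%) for 9 of 9 members, from 50.8% for ATF3 to 69.7% for JUND. Split by GC content into 5 equal groups, the genes with values (91.9% of those tested) had a median replicate difference of 0.28 in the group with the lowest content and -0.41 in the group with the highest, while the median SB minus DMSO difference was 0.066 and -0.039. Mitochondrial genes also followed the number, with 5.88% and 6.64% of the FPKM sum in replicate 1 and 9.92% and 10.2% in replicate 2. With a correction for GC content, an alternative chosen after seeing the data, every member kept its sign and 0 passed the limma adjustment. The log2 fold change of JUND was then 0.54 (SE 0.33), that of JUNB was -0.022 (SE 0.11) and that of FOS was 0.76 (SE 0.12, limma adjusted p 0.0871). The part of mitochondrial RNA in the members' values was not tested.

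With the replicate number as a block in limma, 4 of 9 members passed the adjustment, FOS (adjusted p 0.00739) and FOSB (0.0121) higher and FOSL1 (0.0385) and FOSL2 (0.0430) lower, against 5.50% of tested genes higher and 4.99% lower. The labels do not say that a number marks a shared culture or day, and there are only 2 pairs, so this fit stands as an alternative. With the block and the correction for GC content together, also chosen after seeing the data, JUND passed as well (log2 fold change 0.54, limma adjusted p 0.0314).

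**Figure D4:**
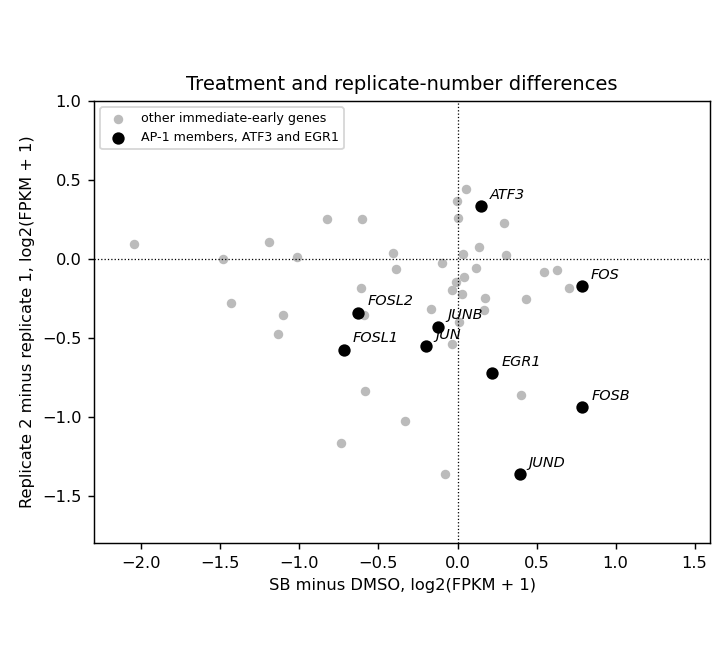
SB minus DMSO (x axis) against replicate 2 minus replicate 1 (y axis), both as mean differences of log2(FPKM + 1), for the 9 members (black, named) and 40 other immediate-early genes (grey). FOSB and FOS stand at 0.79 and 0.78 on the x axis and at -0.94 and -0.17 on the y axis, and ATF3 is the member above 0 on the y axis.

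The relatives of AP-1 (ATF, CREB, MAF, BATF and NFE2 genes and the JDP2 repressor, 18 of 21 tested) included no gene past the adjustment. With limma, 3 had an unadjusted p under 0.05, all higher, against 4.80% of tested genes. The median log2 fold change of the list was 0.06. MAF, a large bZIP factor, stood at 20.9 and 9.17 FPKM with DMSO and at 52.0 and 26.9 FPKM with SB (log2 fold change 1.36, limma adjusted p 0.472), and the log2 fold change of ATF5 was 0.63 (adjusted p 0.381).

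The other immediate-early genes with an unadjusted p under 0.05 were nearly all lower with SB. Of 45 listed, 40 were tested and 0 passed the limma adjustment, but 12 were lower and 1 was higher at an unadjusted p under 0.05, against 5.16% and 4.80% of tested genes. Their median log2 fold change was -0.035, beside 0.04 over all tested genes. Both SB libraries were above both DMSO libraries in 8 of the 40 (21.5% of tested genes) and below them in 14 (16.0%). CCN2, a matricellular protein and a classical TGFβ target, stood at 4.99 and 6.03 FPKM with DMSO and at 0.594 and 0.543 FPKM with SB (log2 fold change -2.05, adjusted p 0.0753). SGK1, a serum-induced kinase, stood at 22.9 and 23.4 FPKM with DMSO and at 7.75 and 7.55 FPKM with SB (-1.48, adjusted p 0.0803). CCN1, a relative of CCN2 induced by serum, stood at 14.1 and 13.0 FPKM with DMSO and at 5.29 and 3.63 FPKM with SB (-1.43, adjusted p 0.139). The 2 nearest relatives of EGR1 on the list, named here after their values were seen, were low. Both were among the 8 with both SB libraries above both DMSO libraries, a share near that of all tested genes, whereas EGR1 itself overlapped. EGR2 stood at 0.326 and 0.482 FPKM with DMSO and at 1.75 and 0.903 FPKM with SB, and EGR3 at 1.49 and 1.74 FPKM with DMSO and at 3.24 and 2.43 FPKM with SB (limma adjusted p 0.519 and 0.513).

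The genes that carry signals to these promoters gave no call. The 26 kinases, SRF cofactors, CREB regulators and other inputs were all tested. Of these, 0 had an unadjusted limma p under 0.05, against 9.96% of tested genes. The adjustment was passed by 0, and the median log2 fold change was 0.0082. The smallest p was that of CREB1, at 13.6 and 12.6 FPKM with DMSO and 17.9 and 14.9 FPKM with SB (log2 fold change 0.30, adjusted p 0.729). The value of COPS5 was 0.24 (adjusted p 0.754). RNA levels of kinases do not report their activity.

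Known AP-1 targets were mixed. Of 24 listed, 16 were tested. At an unadjusted limma p under 0.05, 3 were higher and 2 were lower, against 4.80% and 5.16% of tested genes. The adjustment was passed by 0, and the median log2 fold change was 0.06. HMOX1, which degrades heme, stood at 14.9 and 13.5 FPKM with DMSO and at 22.9 and 24.1 FPKM with SB (log2 fold change 0.69, adjusted p 0.270). The metallothionein MT2A stood at 11.3 and 13.5 FPKM with DMSO and at 21.0 and 28.9 FPKM with SB (0.94, adjusted p 0.274). The chemokine CCL2 stood at 1.06 and 1.78 FPKM with DMSO and at 0.223 and 0.0842 FPKM with SB (-1.06, adjusted p 0.308).

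Immediate-early genes can be induced when cells are handled, so heat shock and stress genes were set beside them. Of 17, 14 were tested, with a median log2 fold change of 0.19. At an unadjusted limma p under 0.05, 1 was higher (DDIT3, 0.51, adjusted p 0.404) and 0 were lower, against 4.80% and 5.16% of tested genes. In 7 both SB libraries were above both DMSO libraries (21.5% of tested genes). HSPH1 (0.41, adjusted p 0.563) and HSPE1 (0.35, adjusted p 0.573) followed. HSPA1A and HSPA1B, near-identical copies, were listed at 0 in all 4 libraries. The part of handling in the levels of FOS and FOSB was not tested.

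Genes known to be activated by SMAD2 and SMAD3, the arm that SB blocks, were mostly lower with SB. Of 17 tested, 12 were lower and 1 was higher at an unadjusted limma p under 0.05, against 5.16% and 4.80% of tested genes. Their median log2 fold change was -0.94 over the 17. TGFBI passed the adjustment, at 29.7 and 31.0 FPKM with DMSO and 4.10 and 4.93 FPKM with SB (-2.51, adjusted p 0.0365). The values of FN1 (-2.10) and COL1A1 (-2.46) had an adjusted p of 0.0646 each.

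Marker levels of several cell types differed between the groups. The marker lists, like the other gene lists, were chosen with earlier results of these data known. Counts over them are therefore a description and not independent evidence, also where they stand beside the share of tested genes. The 10 hematopoietic markers summed to 344.4 and 316.7 FPKM with DMSO and to 609.0 and 575.9 FPKM with SB. In all 9 that were tested both SB libraries were above both DMSO libraries (21.5% of tested genes). SPN, which encodes CD43, stood at 31.6 and 36.2 FPKM with DMSO and at 52.9 and 66.8 FPKM with SB, whereas PTPRC, which encodes CD45, was at most 0.20 FPKM. The 8 mesenchymal markers summed to 353.9 and 315.9 FPKM with DMSO and to 168.7 and 171.2 FPKM with SB. In all 6 that were tested both SB libraries were below both DMSO libraries (16.0% of tested genes). The genes named next were picked after their values were seen. The collagens COL1A1, COL1A2 and COL3A1 weigh most in these sums, and COL1A1 is also on the SMAD2/3 list. PDGFRB changed least (log2 fold change -0.16), and DCN and POSTN were too low to be tested. The 6 endoderm and liver markers summed to 275.7 and 312.0 FPKM with DMSO and to 27.3 and 30.7 FPKM with SB. The 10 endothelial markers summed to 2454 and 2046 FPKM with DMSO and to 2429 and 2065 FPKM with SB. Of the 10, 6 were higher in replicate 1 in both groups (35.6% of tested genes). At an unadjusted limma p under 0.05, 1 was higher and 1 was lower with SB (4.80% and 5.16% of tested genes). Both are named here after their values were seen. CLDN5, a tight junction protein, stood at 120.6 and 79.4 FPKM with DMSO and at 231.1 and 176.6 FPKM with SB (log2 fold change 1.04, adjusted p 0.318), and ROBO4, an endothelial receptor, averaged 11.9 FPKM with DMSO and 5.04 FPKM with SB, without overlap (-1.09, adjusted p 0.135). The gene of CD31, PECAM1, stood at 197.1 and 163.2 FPKM with DMSO and 181.8 and 152.6 FPKM with SB, and CDH5 at 272.8 and 245.8 FPKM with DMSO and 223.6 and 202.1 FPKM with SB. FOS shared its direction with the hematopoietic markers, and FOSL1 and FOSL2 shared theirs with the mesenchymal and endoderm markers. The only contrast was SB against DMSO, so any gene that differed between the groups shared its direction with some of these markers. The shared direction therefore cannot link the members to a cell type. The part of hematopoietic, mesenchymal and endoderm cells in the members' values was not tested. In bulk RNA, fewer cells of a type and less RNA per cell cannot be told apart.

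**Figure D5:**
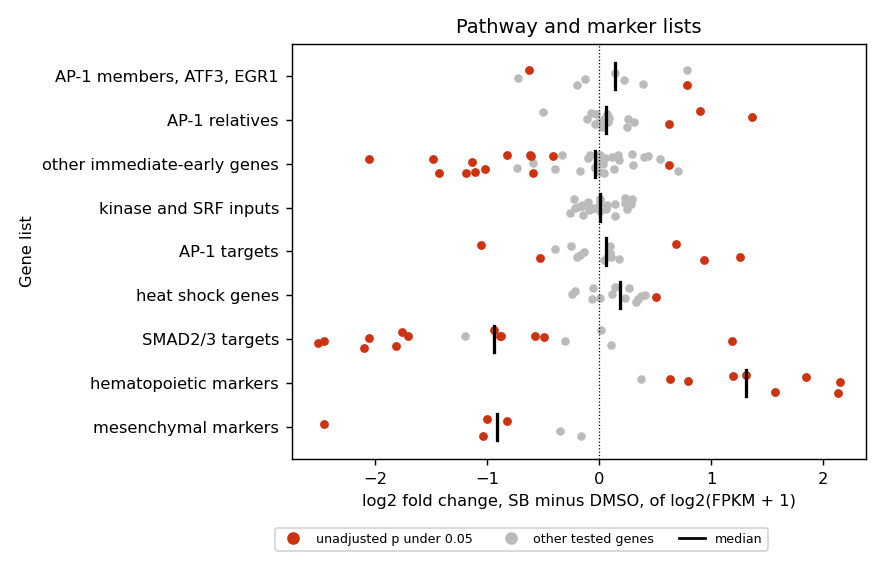
log2 fold change of log2(FPKM + 1), SB minus DMSO, of each tested gene in 9 lists, with red points for an unadjusted limma p under 0.05, grey points for the others and a black bar at the list's median. The medians are 0.15 for the 9 members, -0.035 for the other immediate-early genes, -0.94 for SMAD2/3 targets and 1.31 for hematopoietic markers.

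The genes whose profile over the 4 libraries was nearest to a member were found by the root mean square distance of centred log2(FPKM + 1). For FOS they were CDKN2D (distance 0.022), SULT1A1 (0.035) and NME2P1 (0.040), with 88 genes within 0.1, and no other member was among these. For JUN they were EMID1 (0.012), TMEM259 (0.014) and STK11 (0.015), with 349 genes within 0.1 and JUNB at rank 146. For EGR1 they were STRN4 (0.016), NAGLU (0.016) and SLC19A1 (0.017), with 205 genes within 0.1. All 4 points share their libraries and depth with every gene, so likeness over them is a description of these libraries.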

How the data were processed

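The authors deposited FPKM per gene for 2 DMSO and 2 SB libraries, replicates 1 and 2 in each. The submitters' processing notes name hg19, BWA, Bowtie and RSEM without a role, yet 95.4% of the 58365 rows carried a GENCODE 29 identifier and 99.8% of these had its GRCh38 position once 1 was added to the start. Values were taken as log2(FPKM + 1). Genes with a mean of at least 1 FPKM in at least 1 group were tested with limma 3.58.1 in R 4.3.3 (empirical Bayes with a trend, group as the only term, two-sided, Benjamini-Hochberg adjustment, threshold 0.05). The script was tested on simulated data. Members and gene lists were chosen with earlier results of these data known. Beside the 9 members, the text names the 3 genes with the smallest unadjusted p of the lists on AP-1, its signals and its targets, stress and SMAD2/3, the cell checks PECAM1, CDH5, SPN and PTPRC, and the 3 nearest profiles of FOS, JUN and EGR1. Of the genes so chosen, 2 are not reported here. Gene structure came from GENCODE 29 and promoters from RefSeq. Alternatives were no filter, a filter of 5 FPKM in 2 libraries, a pseudocount of 0.1, quantile normalization, upper-quartile scaling, the replicate block, GC correction and the removal of each library.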

Additional observations from a re-analysis of the deposited data

How the results depend on the processing

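The replicate block rests on no pairing that the labels establish. Deviations from the group mean correlated between the libraries numbered 1 with r = 0.53 over 14909 genes, which are not independent, and with only 2 pairs this is a hint from the data. With the block, 1564 genes and 4 members passed the adjustment (20 and 0 without it) and 6 members had an unadjusted p under 0.05 (2 without it). With the block and GC correction these were 1651, 5 and 6, and GC correction alone gave 126 genes. Both GC settings were chosen after seeing the data. Quantile normalization gave 31 genes, and no filter gave 0 (2739 at an unadjusted p under 0.05). Members with an unadjusted p under 0.05 numbered 1 with no filter, with the filter of 5 FPKM and with quantile normalization. Leaving out 1 library gave 0 to 14 genes, the lowest without DMSO replicate 1 (1168 at an unadjusted p under 0.05), with 10 without SB replicate 1 and 9 without SB replicate 2. It left 0 to 3 members at an unadjusted p under 0.05, with 0 without SB replicate 1 and 1 without SB replicate 2, and in these fits the lone library of a group is assumed to vary like the others. Leaving out 1 library, the median of the members ranged from -0.40 (without DMSO replicate 2) to 0.19, with -0.17 without SB replicate 1, and it was 0.21 with the pseudocount of 0.1. On leaving out 1 library, the median of the other immediate-early genes ranged from -0.18 (without DMSO replicate 2) to 0.024 (without DMSO replicate 1), with -0.17 without SB replicate 1, and was -0.076 with upper-quartile scaling. Leaving out 1 library, JUN ranged from -0.54 to 0.14, JUNB from -0.40 to 0.16, JUND from -0.40 to 1.19, ATF3 from -0.23 to 0.52 and EGR1 from -0.17 to 0.61. The sign of JUN turned to 0.14 without DMSO replicate 1 and to 0.0098 without SB replicate 2, that of JUNB to 0.16 and 0.032, and that of ATF3 to -0.23 without DMSO replicate 1. JUND turned to -0.40 without DMSO replicate 2 and to -0.17 without SB replicate 1, and EGR1 to -0.17 and -0.11. FOS (0.69 to 0.88), FOSB (0.28 to 1.30), FOSL1 (-1.07 to -0.37) and FOSL2 (-0.83 to -0.43) kept their sign in 12 of 12 alternatives. For most of these the sign was fixed beforehand. No filter, the filter of 5 FPKM and the replicate block cannot change a fold change. The groups of FOS, FOSL1 and FOSL2 did not overlap, so removing 1 library could not turn their sign. The cause of the shifts in fold change between settings was not tested. Ratios within a library do not depend on scaling. The absolute depth is unknown, so the counting error of low genes such as ATF3 cannot be given.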
